A study of Rattus norvegicus with 47 samples.

Results

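The step from 3 h to 6 h after middle cerebral artery (MCA) occlusion compares whole-blood mRNA on 7 arrays at 6 h with that on 8 arrays at 3 h, 15 of the 47 arrays of a time course over 24 h. All 27596 probe sets of the gene array were taken, and the difference of a probe set is its mean at 6 h minus its mean at 3 h on the log2 scale, so that 1 is a doubling. Every animal was a male spontaneously hypertensive rat (SHR) of 16 weeks. Stroke was induced under isoflurane with a silicon-coated thread that occluded the MCA and was withdrawn between the 1 h and 2 h blood draws, so both groups here had been reperfused. The same rats were bled at 0 h, before anaesthesia, and then repeatedly, by tail vein puncture at 3 h and 6 h and by heart puncture at 24 h. Of the 8 rats, 7 have an array at both 3 h and 6 h, and rat 3 has none at 6 h. No group of sham-operated rats was among the samples, so time after the stroke, after surgery and anaesthesia, after repeated bleeding and within the day cannot be told apart. The values are the authors' means ± SD of the log2 RMA signal (robust multi-array average) over the arrays of a time point (n = 8 at 3 h, n = 7 at 6 h). Single arrays were not used, so whether single rats overlapped between the groups is not given.

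Whole blood carries RNA from neutrophils, monocytes, lymphocytes, platelets and young red cells. After a stroke or other acute stress, neutrophils are released into the circulation while lymphocytes leave it, and stress hormones and cytokines change what the remaining cells transcribe. A change in such bulk RNA can come from fewer cells of a type or from less RNA per cell, and these cannot be told apart here. Markers of the expected cells gave signal at both times: the platelet receptor Clec1b averaged 13.01 ± 0.15 at 3 h and 13.06 ± 0.18 at 6 h and the red cell anion exchanger Slc4a1 12.07 ± 0.11 at 3 h and 11.71 ± 0.33 at 6 h.

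From 3 h to 6 h, 645 probe sets rose and 674 fell in a moderated test in the manner of limma (adjusted p below 0.05 by Benjamini-Hochberg over all 27596). The 1319 together are 4.78% of those tested, 2.34% higher and 2.44% lower. Most changes were small, with a median size of 0.34 on the log2 scale, but 20 probe sets rose and 2 fell by at least 1. Rises outnumbered falls among the larger changes, with 161 higher and 94 lower by at least 0.5. The difference exceeded the sum of the 3 h and 6 h SDs in 727 of all 27596 probe sets, 660 of them among the 1319 called. The variance of this test was pooled over the 6 time points. With the variance of the 3 h and 6 h arrays alone, 396 probe sets were higher and 341 lower, and 701 of these 737 were among the 1319. Where a gene named here loses its call with that variance, the adjusted p is given.

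**Figure D1:**
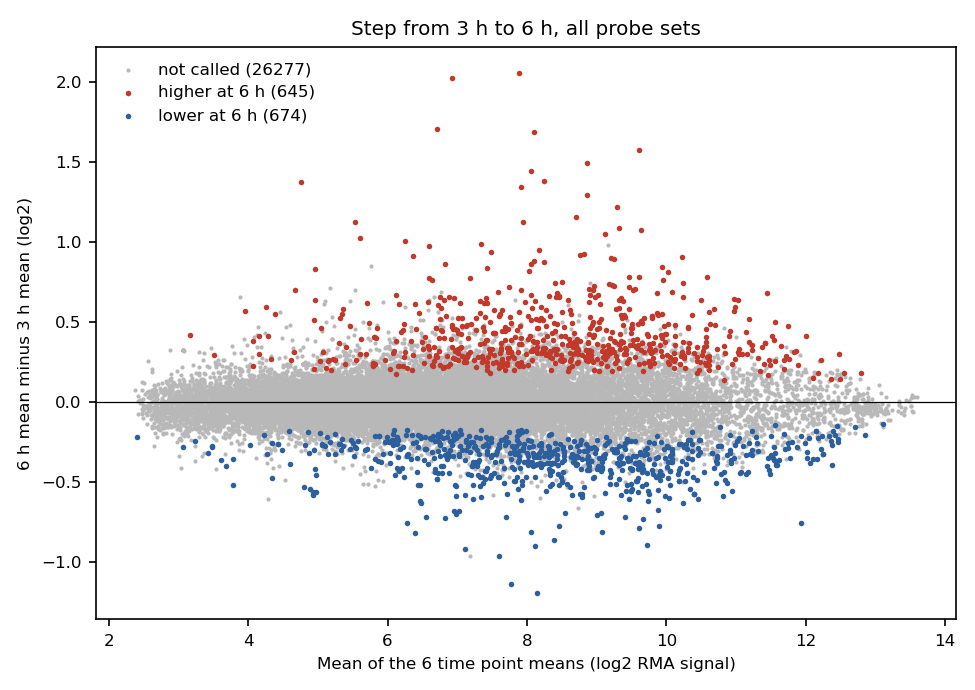
Each point is 1 of 27596 probe sets, with the mean of its 6 time point means (log2 RMA signal) on the x axis and its 6 h mean minus its 3 h mean (log2) on the y axis. The 645 called higher are red, the 674 called lower blue, and the called share grew from 1.32% of the 5519 probe sets of lowest signal to 12.7% of the 5520 of highest.

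The largest rise was that of Nek10, a kinase of the NIMA-related family (chr15:15803886-15851264, rn5). Its probe set with the largest change averaged 7.53 ± 0.29 at 3 h and 9.58 ± 0.19 at 6 h, a rise of 2.06 (95% confidence interval 1.68 to 2.43, adjusted p = 1.69e-10). The other Nek10 probe sets rose by 2.02 and 1.70, so that all 3 rose. Car4, a membrane-bound carbonic anhydrase, averaged 8.17 ± 0.16 at 3 h and 9.86 ± 0.53 at 6 h and rose by 1.69 (adjusted p = 1.61e-08). Lcn2 encodes lipocalin-2, a neutrophil granule protein that binds bacterial siderophores and so withholds iron. It averaged 9.61 ± 0.61 at 3 h and 11.19 ± 0.71 at 6 h, with the widest spread of the 14 largest rises at 6 h, and rose by 1.57 (95% confidence interval 1.03 to 2.12, adjusted p = 0.000137). Its mean at 2 h had been 10.19, above that at 3 h.

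Il22ra2, a soluble receptor that binds interleukin-22, averaged 8.05 ± 0.32 at 3 h and 9.40 ± 0.22 at 6 h and rose by 1.35 (adjusted p = 5.53e-08). Clec4b2, a C-type lectin of myeloid cells, averaged 9.83 ± 0.37 at 3 h and 11.04 ± 0.21 at 6 h, a rise of 1.22 (adjusted p = 2.66e-05). Prg4 encodes lubricin, the glycoprotein that lubricates joints, and Tshb the beta subunit of thyrotropin. Prg4 averaged 9.84 ± 0.33 at 3 h and 10.92 ± 0.33 at 6 h and rose by 1.07 (adjusted p = 0.000818). Tshb averaged 8.99 ± 0.31 at 3 h and 10.08 ± 0.40 at 6 h and rose by 1.09 (adjusted p = 1.06e-05). Cpne8, a calcium-dependent membrane-binding copine, averaged 8.98 ± 0.36 at 3 h and 10.36 ± 0.11 at 6 h and rose by 1.38 (adjusted p = 1.91e-06). Adgb (androglobin) rose by 1.29 and Gdpd1, a phosphodiesterase of lipids, by 1.12. The remaining large rises were Ppil6, a cyclophilin-like protein (1.02), RGD1565410 (1.01), the transcription factor Zeb2 (0.99) and Prdm9, the methyltransferase that places meiotic recombination sites (0.97). Probe sets disagreed in size for RGD1565410, whose other probe set differed by 0.22 and was not called, and for Zeb2, whose other one rose by 0.31 and was not called with the variance of the 3 h and 6 h arrays alone (adjusted p = 0.108).

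**Figure D2:**
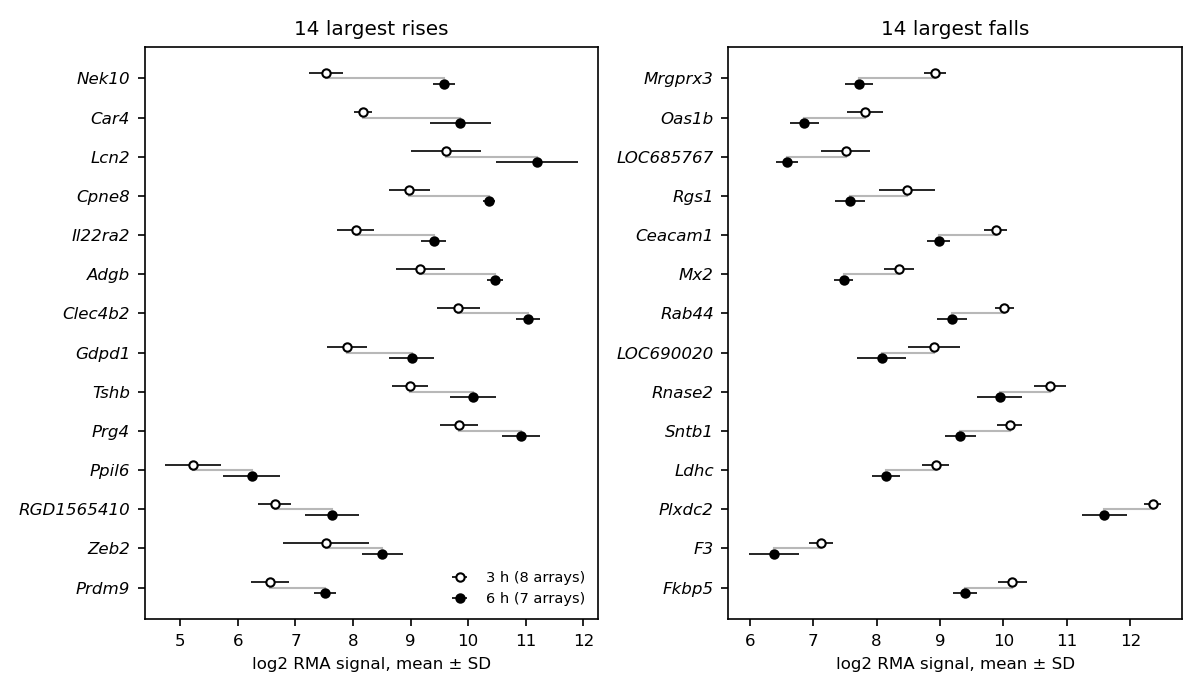
Authors' mean ± SD (log2 RMA signal, x axis) at 3 h (open, 8 arrays) and 6 h (filled, 7 arrays) for the 14 strongest rises and the 14 strongest falls. Nek10 went from 7.53 to 9.58 and Mrgprx3 from 8.92 to 7.72, while the SD bars of Zeb2 overlap.

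The largest fall was in Mrgprx3, a Mas-related G protein-coupled receptor (chr1:104362402-104387707, rn5). It averaged 8.92 ± 0.17 at 3 h and 7.72 ± 0.22 at 6 h, a fall of 1.20 (95% confidence interval -1.43 to -0.96, adjusted p = 8.59e-10). Its mean had been 6.69 at 0 h and 9.54 at 2 h, and was 7.14 at 24 h. Of the 14 largest falls, Oas1b and Mx2 are interferon-induced antiviral genes and are described with their group. Rgs1, which shortens G protein signals of chemokine receptors, averaged 8.48 ± 0.44 at 3 h and 7.58 ± 0.24 at 6 h and fell by 0.90 (adjusted p = 0.0208). Ceacam1, an adhesion molecule of leukocytes and epithelia, averaged 9.88 ± 0.18 at 3 h and 8.98 ± 0.18 at 6 h and fell by 0.90 (adjusted p = 5.46e-09). Rab44, a Rab-type GTPase, averaged 10.01 ± 0.15 at 3 h and 9.19 ± 0.23 at 6 h and fell by 0.81 (adjusted p = 3.87e-08). Its step was more negative than that from 2 h to 3 h (adjusted p of the difference = 0.0018).

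F3 encodes tissue factor, the starter of the extrinsic coagulation cascade. Its mean was higher at each draw up to 3 h, from 5.64 at 0 h. It averaged 7.13 ± 0.19 at 3 h and 6.38 ± 0.39 at 6 h and fell by 0.76 (adjusted p = 0.000431). Fkbp5, a co-chaperone of the glucocorticoid receptor and itself a target of it, averaged 10.14 ± 0.23 at 3 h and 9.40 ± 0.19 at 6 h, a fall of 0.73 (adjusted p = 3.45e-06). Rnase2, an eosinophil-type ribonuclease, fell by 0.79 (adjusted p = 0.0375). The other large falls were LOC685767 (-0.92), LOC690020 (-0.81), the dystrophin-associated syntrophin Sntb1 (-0.78), the testis-type lactate dehydrogenase Ldhc (-0.78) and the plexin domain protein Plxdc2 (-0.76). All 28 genes with the largest rises and falls kept their call with the variance of the 3 h and 6 h arrays alone.

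Whether a gene's step from 3 h to 6 h differed from its step from 2 h to 3 h was tested as a contrast of both steps, which span 3 h and 1 h and share the 3 h arrays. It differed in 405 probe sets (1.47%), 211 (0.765%) more positive and 194 (0.703%) more negative in the later step. Of the 1319 called from 3 h to 6 h, 249 (18.9%) were among them. Among genes called in both tests, by probe sets with exactly 1 symbol and with 1 taken per gene, the largest positive difference was that of Lcn2, by 2.15 (adjusted p = 0.00663), followed by a Nek10 probe set (1.99), Tshb (1.55), the ciliary transport protein Ttc30b (1.45) and Rtp3, a chaperone of receptors (1.29). Rtp3, with a mean of 10.11 at 2 h, averaged 9.52 ± 0.23 at 3 h and 10.22 ± 0.29 at 6 h. The rise of Ttc30b itself was not called with the variance of the 3 h and 6 h arrays alone (adjusted p = 0.14).

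In the other direction, Cish, an inhibitor of cytokine signalling through STAT5, had its highest mean at 3 h. Its mean was 6.96 at 2 h, and it averaged 7.41 ± 0.16 at 3 h and 6.73 ± 0.13 at 6 h, a difference of -1.13 between the steps (adjusted p = 1.78e-06). Erg, an ETS transcription factor, had a mean of 7.40 at 2 h and averaged 7.90 ± 0.25 at 3 h and 7.32 ± 0.23 at 6 h (difference of steps -1.08, adjusted p = 0.000208). F3 (-1.22) and the winged-helix protein Stox2 (-1.28) also had a lower mean at 2 h and at 6 h than at 3 h. Tgm1, a transglutaminase, had the difference -1.26 but averaged 9.65 ± 0.44 at 3 h and 10.28 ± 0.51 at 6 h, after 7.76 at 2 h. Its rise of 0.63 from 3 h had an adjusted p of 0.0425, which became 0.127 with the variance of the 3 h and 6 h arrays alone.

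**Figure D3:**
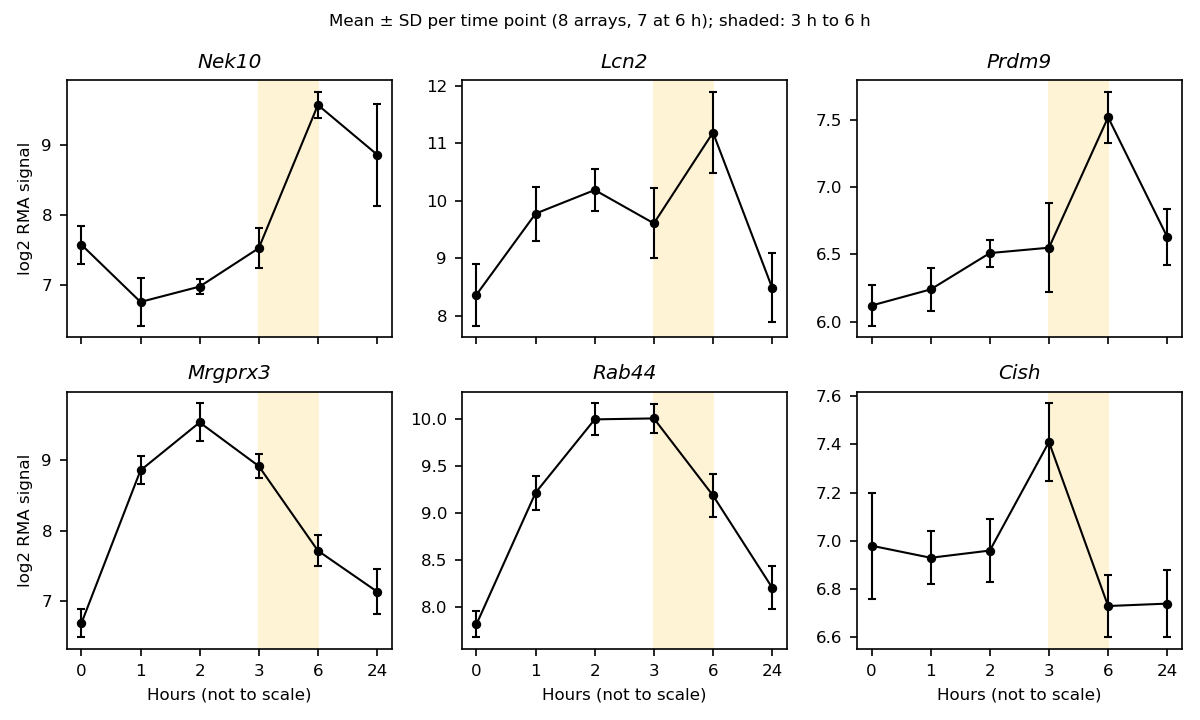
Authors' mean ± SD (log2 RMA signal, y axis) of 6 genes at 0, 1, 2, 3, 6 and 24 h (x axis, not to scale; 8 arrays each, 7 at 6 h), with the step from 3 h to 6 h shaded. Nek10, Lcn2 and Prdm9 rise in the shaded step, and Mrgprx3, Rab44 and Cish fall.

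Lists of genes were read with 1 probe set per gene, against a background of 19418 genes. Of these, 5.48% were called, 531 (2.73%) higher and 534 (2.75%) lower. Their median difference was -0.02, with 10772 genes below 0 and 8646 above. The called share grew with signal, to 13.8% of the 4370 genes that lie among the 5520 probe sets of highest signal, and the median signal of 18 of the 30 lists lay in that range. For lists of high signal 13.8% is therefore the nearer background. Of the members in that range, 53.8% of the interferon-stimulated genes were called, 29.2% of the cytokine and chemokine receptors, 25.9% of the erythroid, 19% of the neutrophil and 16.7% of the T cell markers, 23.1% of the Toll-like and formyl peptide receptors and 20% of the leukocyte adhesion genes. The last 4 of these shares rest on 3 or 4 called genes each. Also above 13.8% were B cell (50%), cell cycle (50%), glucocorticoid (35.7%), hypoxia (31.6%), MHC class II (28.6%), NK (23.1%), iron (20%), JAK-STAT (18.2%) and respiratory chain genes (14.3%). Below it were heat shock (13.3%), NF-kB (9.09%), cytokine (8.33%), cell death (5.56%) and ribosomal protein genes (1.39%). None in that range was called among monocyte, platelet, class I loading, clock, immediate early, dendritic, eosinophil and brain cell genes. No difference from 13.8% was tested. The list with the highest share of called members was that of the interferon-stimulated genes. Type I interferons act through JAK kinases and transcription factors such as IRF9 to switch on genes that block viral replication. Of 52 measured members, 27 fell and 1 rose, with a median difference of -0.30, and 46 lay below 0. With the variance of the 3 h and 6 h arrays alone 23 fell and none rose.

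The promoters of 3 falling members are shown because the list shares a sequence element. They are RefSeq sequences on the GRCr8 build, from 250 bases before to 50 after the gene start, while the array table is on rn5. Capitals mark the core of the interferon response element, GAAA, any 2 bases and GAAA again, searched on both strands. The windows are chr12:41395803-41396102 (minus strand) for Oas1b, chr10:33742529-33742828 (minus strand) for Irgm and chr10:57415685-57415984 (plus strand) for XAF1, listed there as Xaf1.
Oas1b: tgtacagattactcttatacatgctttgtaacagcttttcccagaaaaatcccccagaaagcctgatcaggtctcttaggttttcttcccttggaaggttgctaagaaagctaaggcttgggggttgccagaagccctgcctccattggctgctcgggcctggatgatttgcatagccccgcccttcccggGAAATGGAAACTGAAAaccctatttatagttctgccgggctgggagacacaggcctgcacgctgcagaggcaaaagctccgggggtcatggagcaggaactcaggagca
Irgm: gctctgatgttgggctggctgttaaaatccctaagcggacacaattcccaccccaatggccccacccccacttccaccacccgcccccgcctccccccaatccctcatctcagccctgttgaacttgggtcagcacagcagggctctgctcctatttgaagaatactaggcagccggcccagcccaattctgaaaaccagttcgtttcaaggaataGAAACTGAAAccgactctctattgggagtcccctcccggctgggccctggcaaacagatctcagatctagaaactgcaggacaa
XAF1: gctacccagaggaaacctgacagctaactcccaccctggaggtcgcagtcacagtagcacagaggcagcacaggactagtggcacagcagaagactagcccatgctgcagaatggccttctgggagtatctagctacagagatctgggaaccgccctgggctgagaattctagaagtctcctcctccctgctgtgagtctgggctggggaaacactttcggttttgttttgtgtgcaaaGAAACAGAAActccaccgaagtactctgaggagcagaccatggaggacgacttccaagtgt
Oas1b holds overlapping matches that begin 59 and 53 bases before the start, Irgm 1 at 34 bases and XAF1 1 at 11 bases before it. Of the 39 list members with a promoter in the table, 25 (64.1%) hold the core, against 3.92% of all 33469 promoters. The members that fell held it in 14 of 20 promoters (70%), and those not called in 10 of 18 (55.6%). A match describes letters in a window and is no measured binding site.

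Oas1b, of the family of oligoadenylate synthetases that trigger RNA decay, averaged 7.82 ± 0.28 at 3 h and 6.86 ± 0.23 at 6 h and fell by 0.96 (95% confidence interval -1.21 to -0.72, adjusted p = 5.74e-07). Mx2, an interferon-induced GTPase, averaged 8.35 ± 0.24 at 3 h and 7.48 ± 0.15 at 6 h and fell by 0.86 (adjusted p = 1.55e-07). Its mean at 0 h had been 9.67, and its step was more negative than that from 2 h to 3 h (adjusted p of the difference = 0.0396). Usp18, which removes ISG15 and dampens the interferon receptor, averaged 9.56 ± 0.24 at 3 h and 8.84 ± 0.15 at 6 h (adjusted p = 0.00011). Irgm, an immunity-related GTPase, averaged 8.74 ± 0.10 at 3 h and 8.04 ± 0.18 at 6 h (adjusted p = 3.43e-06). XAF1, a pro-apoptotic protein, averaged 9.45 ± 0.17 at 3 h and 8.88 ± 0.31 at 6 h (adjusted p = 9.9e-05). Ifi27l2b averaged 9.50 ± 0.14 at 3 h and 8.92 ± 0.51 at 6 h, with an adjusted p of 0.0187 that became 0.06 with the variance of the 3 h and 6 h arrays alone.

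Sensors and signal carriers of the pathway were among the members that fell. The RNA sensors Ddx58 (-0.35), Dhx58 (-0.47) and Ifih1 (-0.24), the transcription factor Irf9 (-0.24) and the chemokine Cxcl10 (-0.47) all fell. Isg15, the ubiquitin-like modifier often used to mark the response, differed by 0.00, and Ifit1, Ifit2 and Ifit3 by -0.08, -0.20 and -0.10, none of them called. The guanylate-binding protein Gbp2 was the member that rose (0.32), but it lost its call with the variance of the 3 h and 6 h arrays alone (adjusted p = 0.051), as did Irf9 (0.0824). Relative to 0 h the list's median stood at 0.13 (2 h), 0.08 (3 h), -0.23 (6 h) and -0.48 (24 h). For 6 members the step was more negative than that from 2 h to 3 h by the test of the difference, and for none more positive. Oas1 and immunity-related GTPase genes have close copies, whose probe sets may share signal. Medians below 0 were also seen in the T cell (-0.18) and erythroid (-0.26) marker lists, and their part in these falls was not tested.

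**Figure D4:**
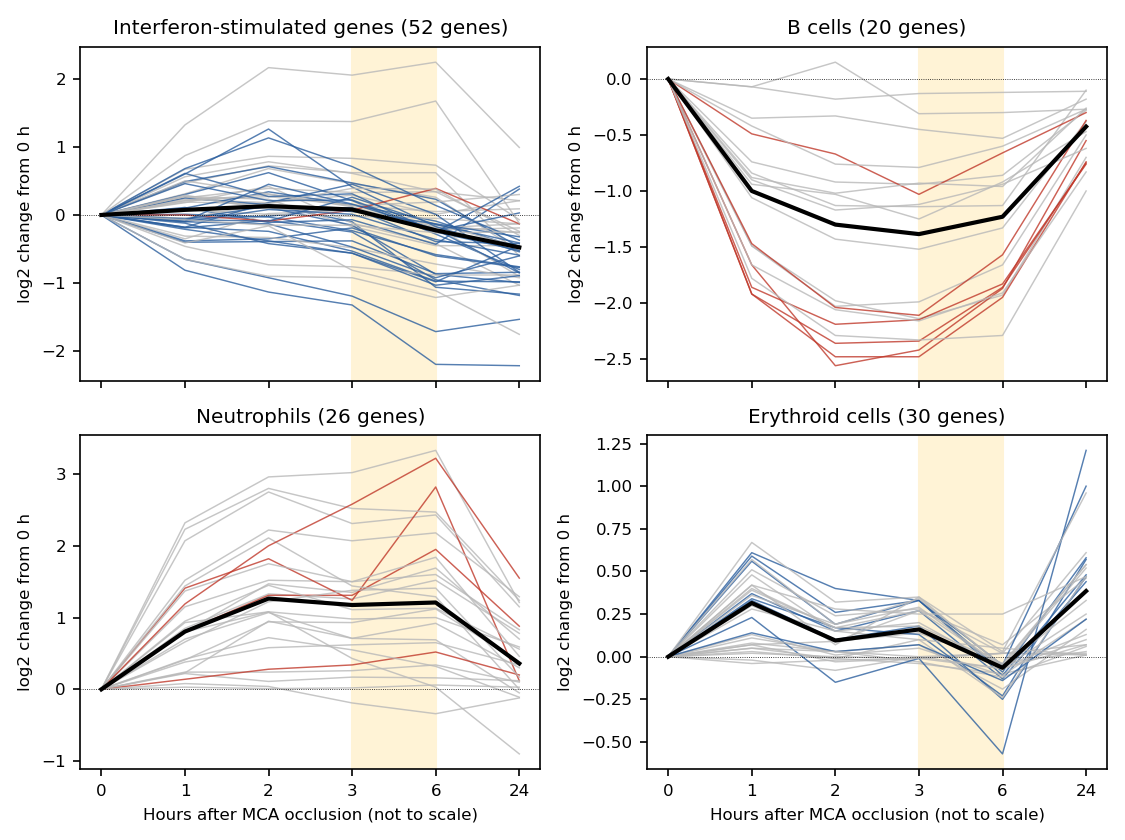
Change of each gene's mean from 0 h (log2, y axis) at 6 time points (x axis, not to scale) for 4 lists, with the step from 3 h to 6 h shaded. Thin red lines are members called higher at 6 h than at 3 h, blue lower, grey not called, and the thick black line is the list median, which goes from 0.08 to -0.23 in the interferon-stimulated genes and from -1.38 to -1.23 in the B cell markers.

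JAK-STAT and SOCS genes carry cytokine signals and shut them off. Of 24 measured, none rose and 3 fell, among them Cish (-0.68) and the cytokine-induced kinase Pim1 (-0.36). Both of these had a lower mean at 6 h than at 2 h. Among 36 cytokine and chemokine receptors 6 rose and 1 fell. The shared interleukin-1 receptor chain Il1rap averaged 10.76 ± 0.24 at 3 h and 11.60 ± 0.19 at 6 h and rose by 0.84 (adjusted p = 5.26e-05). Csf3r, the receptor for the neutrophil growth factor G-CSF, averaged 11.30 ± 0.11 at 3 h and 11.94 ± 0.25 at 6 h (adjusted p = 5.26e-05). Ccr1, a receptor for inflammatory chemokines, averaged 11.14 ± 0.18 at 3 h and 11.70 ± 0.12 at 6 h (adjusted p = 0.0258). Smaller rises were those of Il10ra (0.38), Ifngr1 (0.31) and Tnfrsf1b (0.23). Il6st, the gp130 chain shared by interleukin-6 type cytokines, was the one that fell. It averaged 9.75 ± 0.22 at 3 h and 9.24 ± 0.22 at 6 h, with 9.21 at 2 h (adjusted p = 0.00037, difference of steps -1.06).

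Of 45 measured cytokines and chemokines 4.44% were called, near the 5.48% of all genes: Prok2, a small secreted prokineticin of neutrophils, rose, and Cxcl10 fell. Prok2 averaged 11.79 ± 0.12 at 3 h and 12.43 ± 0.11 at 6 h (adjusted p = 0.00431). Of 20 NF-kB subunits and inhibitors 1 fell, the kinase Ikbke (-0.38, adjusted p = 0.0182), and none rose. Of 22 Toll-like and formyl peptide receptors and their adaptors, 4 fell: Tlr5, the flagellin receptor (-0.39), Irak3 (-0.38), Irak1 (-0.33, a probe set shared with Mir5132) and Tlr4, the receptor for bacterial endotoxin (-0.32). Without the pooled variance only Tlr5 kept its call, and the adjusted p was 0.141 for Irak3, 0.0566 for Irak1 and 0.073 for Tlr4.

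Among 26 neutrophil markers 4 rose and none fell, with a median difference of 0.09. Among these were Lcn2, Csf3r and Prok2. The list's median level went from 1.18 above 0 h at 3 h to 1.21 above it at 6 h. The granule genes of the list other than Lcn2 were not called. Of 22 monocyte and macrophage markers 1 fell, the complement gene C1qa (-0.21), which was not called with the variance of the 3 h and 6 h arrays alone (adjusted p = 0.06). None of the 15 eosinophil, basophil and mast cell markers and none of the 16 platelet markers was called. Platelet factor 4 (Pf4) differed by -0.04 and Clec1b, a platelet receptor, by 0.05.

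Of 20 B cell markers 19 were lower at 2 h than at 0 h, and 6 rose from 3 h to 6 h while none fell, with a median difference of 0.20 and 18 of 20 above 0. Ms4a1, which encodes CD20, averaged 7.72 ± 0.28 at 3 h and 8.27 ± 0.31 at 6 h (adjusted p = 0.0118). Ebf1, the early B cell transcription factor, averaged 7.32 ± 0.26 at 3 h and 7.85 ± 0.17 at 6 h (adjusted p = 0.0157). Cd79b, a signalling chain of the B cell receptor, averaged 8.57 ± 0.22 at 3 h and 9.05 ± 0.18 at 6 h (adjusted p = 0.0165). These levels stayed well under those at 0 h, 10.14 for Ms4a1, 9.80 for Ebf1 and 10.91 for Cd79b. Bank1 (0.54), the exchange factor Ralgps2 (0.36) and the IgM receptor Fcmr (0.32) were the others that rose. Bank1 and Ralgps2 had adjusted p of 0.066 and 0.0547 with the variance of the 3 h and 6 h arrays alone.

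Of 24 T cell markers none rose and 4 fell, with a median difference of -0.18 and 22 of 24 below 0. Il7r, the interleukin-7 receptor, averaged 9.75 ± 0.28 at 3 h and 9.32 ± 0.18 at 6 h (adjusted p = 0.0204). Themis, needed in thymocyte selection, averaged 9.20 ± 0.33 at 3 h and 8.72 ± 0.23 at 6 h (adjusted p = 0.0118). The co-stimulatory receptor Cd27 differed by -0.38 and the transcription factor Bcl11b by -0.23. Of these only Il7r was called with the variance of the 3 h and 6 h arrays alone, along with Cd3e of the T cell receptor complex (-0.32), and Themis (0.053), Cd27 (0.0656) and Bcl11b (0.0707) were just above the threshold. The difference between the B cell and T cell lists was itself not tested. Of 18 NK and cytotoxic cell markers, the protease inhibitor Cst7 (0.55) and the receptor Ncr1 (0.31) rose and granzyme B (-0.56, a probe set shared with Gzmbl2) fell. With the variance of the 3 h and 6 h arrays alone only Cst7 was called, and the adjusted p was 0.0964 for Ncr1 and 0.0829 for granzyme B (Gzmb). Among 11 dendritic cell markers the lectin Cd209a rose, by 0.49, and the lectin Clec10a fell, by 0.53 on the log2 scale.

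MHC class II molecules present peptides to helper T cells and are made by B cells, dendritic cells and monocytes. Of 17 measured class II genes, 4 rose and none fell, with a median difference of 0.15. Cd74, the invariant chain, averaged 10.74 ± 0.17 at 3 h and 11.26 ± 0.17 at 6 h (adjusted p = 0.00309), and RT1-Da 9.54 ± 0.20 at 3 h and 10.09 ± 0.31 at 6 h (adjusted p = 0.00352). RT1-Db1 (0.29) and RT1-Db2 (0.26) lost their calls with the variance of the 3 h and 6 h arrays alone (adjusted p = 0.0718 and 0.1). B cell markers moved the same way, with 6 of 20 higher and a median of 0.20, and their part in this rise was not tested. Of 16 class I loading and immunoproteasome genes only Nlrc5, the transactivator of class I genes, was called (-0.32).

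Of 30 erythroid markers, 8 fell and none rose, with a median difference of -0.26 and 27 of 30 below 0. Rhag, a protein of the Rh complex, averaged 10.10 ± 0.19 at 3 h and 9.67 ± 0.18 at 6 h (adjusted p = 0.00178). Tfrc, the transferrin receptor by which young red cells take up iron, averaged 8.15 ± 0.28 at 3 h and 7.59 ± 0.29 at 6 h (adjusted p = 0.0151). The membrane skeleton genes Dmtn (-0.44), Epb42 (-0.40) and Ank1 (-0.39) also fell, as did Slc4a1 (-0.36) and Car2 (-0.21). Of those named here, Tfrc, Rhag and Epb42 kept the call with the variance of the 3 h and 6 h arrays alone, and the adjusted p was 0.069 for Dmtn, 0.0899 for Ank1, 0.104 for Slc4a1 and 0.114 for Car2. The SD of Slc4a1 was 0.11 at 3 h and 0.33 at 6 h. Of 73 ribosomal protein genes 68 lay below 0, with a median of -0.09. The median SD of these genes was 0.17 at 3 h and 0.27 at 6 h. Rpl7 alone was called (-0.23), but not with the variance of the 3 h and 6 h arrays alone (adjusted p = 0.159).

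**Figure D5:**
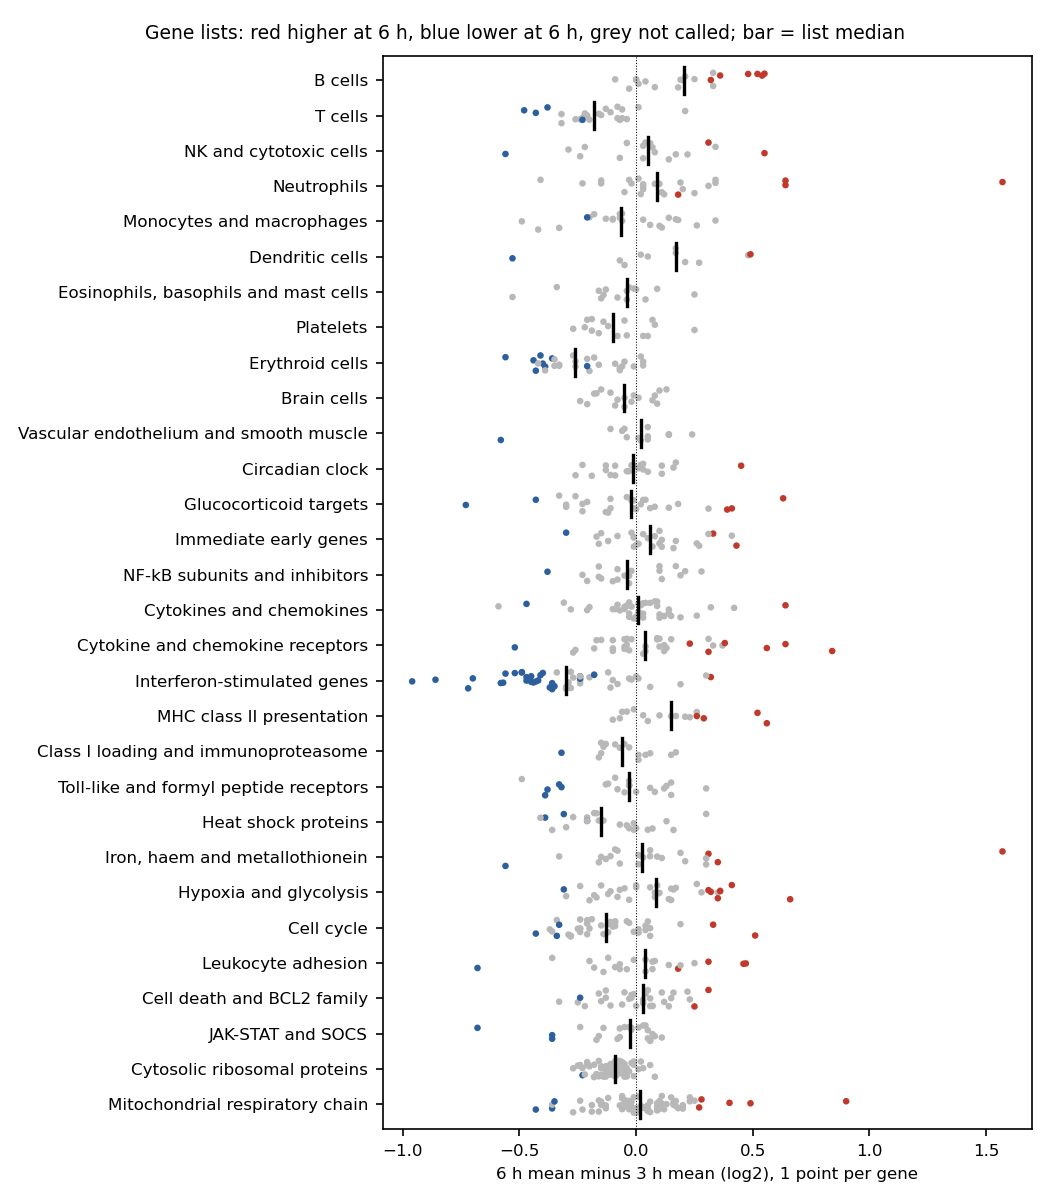
Difference between the 6 h and 3 h means (log2, x axis) of every measured member of 30 gene lists (y axis), 1 point per gene, red where called higher, blue where called lower and grey where not called; black bars are list medians. The interferon-stimulated genes (median -0.30) and erythroid markers (-0.26) lie to the left and the B cell markers (0.20) to the right.

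Of 36 hypoxia and glycolysis genes, 6 rose and 1 fell. The glycolytic enzyme Tpi1 averaged 8.53 ± 0.17 at 3 h and 9.19 ± 0.25 at 6 h and rose by 0.66 (adjusted p = 7.39e-05). Pfkfb3, which makes the main activator of phosphofructokinase, rose by 0.41, the glycogen branching enzyme Gbe1 by 0.36, Pgk1 by 0.35 and Eno1 by 0.32. Gys1, the glycogen synthase, rose by 0.31 and the stress gene Ndrg1 fell by 0.31, both without a call with the variance of the 3 h and 6 h arrays alone (adjusted p = 0.0807 and 0.0813). Of 24 iron, haem and metallothionein genes, Lcn2, the phagosomal metal transporter Slc11a1 (0.35; adjusted p = 0.0508 with the variance of the 3 h and 6 h arrays alone) and the zinc exporter Slc30a1 (0.31) rose, and Tfrc fell. Of 24 heat shock genes 3 fell and none rose: Hsp90ab1 (-0.39), Dnaja1 (-0.31) and Hspb1 (-0.21). Hspb1 was not called with the variance of the 3 h and 6 h arrays alone (adjusted p = 0.153). Of the 15 heat shock genes in the range of highest signal 13.3% were called, near the 13.8% of all genes there.

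Of 29 glucocorticoid targets, 3 rose and 2 fell, with a median of -0.02. Fkbp5 and Il7r fell, as given above. Bcl6, a transcriptional repressor, averaged 10.41 ± 0.11 at 3 h and 11.04 ± 0.17 at 6 h and rose by 0.63 (adjusted p = 1.02e-06), after a mean of 10.73 at 2 h. Anxa1, an anti-inflammatory phospholipid-binding protein, rose by 0.41 and Rgs2 by 0.39 (adjusted p = 0.0823 for Rgs2 with the variance of the 3 h and 6 h arrays alone). Of 22 circadian clock genes only Per2, a repressor of the core clock loop, was called. It averaged 7.28 ± 0.15 at 3 h and 7.73 ± 0.12 at 6 h, a rise of 0.45 (adjusted p = 7.25e-05). Its promoter window holds no CACGTG, the only form of the E-box searched. That form was found in 4 of the 19 clock promoters (21.1%) and in 6.42% of all promoters. Other forms were not searched, so the window is not shown to lack a clock element. Of 28 immediate early genes, Ier5 (0.33) and Ier3 (0.43) rose and Myc fell by 0.30. The calls of Ier3 and Myc were lost with the variance of the 3 h and 6 h arrays alone (adjusted p = 0.082 and 0.107).

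Leukocyte adhesion genes rose in 4 of 23 and fell in 1. Itga5, a fibronectin receptor chain, averaged 7.68 ± 0.08 at 3 h and 8.15 ± 0.16 at 6 h (adjusted p = 2.92e-06). Icam2, a ligand of leukocyte integrins, averaged 9.32 ± 0.15 at 3 h and 9.78 ± 0.16 at 6 h (adjusted p = 2.15e-05). Cd44, the hyaluronan receptor, rose by 0.31 but was not called with the variance of the 3 h and 6 h arrays alone (adjusted p = 0.0885). Itga1, a collagen receptor chain, averaged 7.41 ± 0.25 at 3 h and 6.73 ± 0.24 at 6 h (adjusted p = 0.000257). Of 42 cell cycle genes 2 rose and 3 fell. Rrm2, which supplies deoxynucleotides for DNA synthesis, averaged 10.68 ± 0.29 at 3 h and 11.18 ± 0.23 at 6 h (adjusted p = 0.0284), after 9.23 at 2 h, and this step was smaller than the one before it (adjusted p of the difference = 0.0351). Kif23, a motor of cell division, fell by 0.43. Prc1 (0.33), Tpx2 (-0.34) and Cenpf (-0.33), all of the mitotic spindle or kinetochore, were called only with the pooled variance (adjusted p = 0.067, 0.0841 and 0.122 otherwise).

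Of 33 cell death genes 2 rose, among them Casp12 (0.31), and 1 fell, the survival gene Mcl1 (-0.24). Mcl1 was not called with the variance of the 3 h and 6 h arrays alone (adjusted p = 0.0875). Of the 18 cell death genes in the range of highest signal 5.56% were called, below the 13.8% of all genes there. Of 74 genes of the mitochondrial respiratory chain, 5 rose and 3 fell. Of the 42 in the range of highest signal 14.3% were called, near the 13.8% of all genes there. Ndufb3, a complex I subunit, averaged 9.28 ± 0.36 at 3 h and 10.18 ± 0.47 at 6 h (adjusted p = 0.0037), and Atp5b, a subunit of ATP synthase, 11.50 ± 0.13 at 3 h and 11.15 ± 0.22 at 6 h (adjusted p = 0.00378). None of 18 brain cell markers was called. The astrocyte filament gene Gfap differed by -0.24 and the myelin gene Mbp by 0.13. Of 13 markers of vessel walls only Erg was called.

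The step was also set beside comparisons whose means come from other arrays of the same rats. All calls used the variance pooled over the 6 time points, so a probe set of low variance is more readily called in each of them, and the shares that follow are a description and not independent of the step. Of the 645 probe sets that rose from 3 h to 6 h, 244 (37.8%) had been higher at 2 h than at 0 h and 174 (27%) lower, against 21.7% and 18.6% of all probe sets. Of the 674 that fell, 231 (34.3%) had been higher and 127 (18.8%) lower. Among those not called in the step these shares were 21% and 18.4%. At 24 h against 0 h, 195 of the 645 were higher and 116 lower, and 221 of the 674 were higher and 143 lower, against 17.4% and 13.9% of all probe sets. In the same fit 973 probe sets (3.53%) were called from 2 h to 3 h and 5211 (18.9%) from 6 h to 24 h, the latter with a change of the site of blood collection.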

How the data were processed

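RNA of whole blood cell pellets was hybridized to Affymetrix RaGene 1.0 ST arrays. Per the file headers, the authors summarized the arrays at gene level by RMA, on the rn5 annotation, and deposited log2 means and SDs per time point, which were used here. RMA quantile normalizes the arrays, so a shift common to all genes would not show. The table's 47 columns of single arrays carry names that match no label and were not used, nor were the authors' fold changes, p-values, FDRs and F-tests. From the means, SDs and array numbers, a moderated test of 6 h minus 3 h and of the difference of steps was computed with squeezeVar of limma (version 3.58.1, R 4.3.3; residual df 41, prior df 5.71) and tested on simulated data. It takes arrays as independent, although rats were bled repeatedly. RNA was worked up in randomized batches that the labels do not name. The number of arrays limits the precision.

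Named were the 14 strongest rises and 14 strongest falls among called probe sets with 1 symbol, the 5 largest differences of steps in each direction, and up to 6 called members per list; further list members were named for their role with their values known. Lists used the probe set of a gene with the highest mean. The members and lists were chosen with earlier results of these data known. Alternatives changed the variance, moderation, scaling, filters and size threshold. Promoters are from RefSeq on GRCr8. Some called genes are counted but not reported by name here.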

Additional observations from a re-analysis of the deposited data

How the results depend on the processing

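No paired analysis was possible because the columns of means carry no rat numbers and the names of the 47 single-array columns match no label. A fit with the rat as a block was therefore not run. With the variance of the contrast's own time points alone, 396 probe sets were higher, 341 lower and 224 differed between the steps, against 645, 674 and 405. A difference of at least 0.5 left 161 higher and 94 lower, so that 63.1% of the called were higher, against 48.9%. The other settings were no moderation, an intensity trend with a robust prior, and centred or quantile normalized means. Further ones left out the lowest 25% by signal or probe sets without a symbol. The variance without the 24 h arrays was chosen after seeing the data. These settings gave 600 to 704 higher and 605 to 711 lower. Rises outnumbered falls with centred means (697 and 605) and quantile normalized means (704 and 650). In the rest of them, as in the main test, falls outnumbered rises. Of the 162 named genes and called list members none reversed under any setting. Of these, 92 did not pass a difference of at least 0.5, 47 lost their call with the variance of the 3 h and 6 h arrays alone, 14 without moderation and at most 7 under each of the others. Leaving out single arrays could not be done from means. How far single arrays stood above background could not be judged from means, and the called share was lowest among the probe sets of lowest signal, at 1.32%, against 12.7% among those of highest signal.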

Other observations

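Genes of sterol synthesis and uptake were listed after their values had been seen, so their counts are a description. Of 33 measured, 8 rose from 3 h to 6 h and none fell, with a median difference of 0.03. Among them, Cyp51, Idi1, Fdft1, Msmo1 and Sqle, enzymes of cholesterol synthesis, rose by 0.56, 0.55, 0.53, 0.53 and 0.33. Insig1, which holds the sterol-sensing complex in the endoplasmic reticulum, rose by 0.48 and Lbr, a sterol reductase and nuclear membrane protein, by 0.47. Sqle (adjusted p = 0.0535), Insig1 (0.115) and Idi1 (0.0514) were not called with the variance of the 3 h and 6 h arrays alone. Except for Lbr, these named genes were below their 0 h level at 3 h, for example Cyp51 at 8.52 at 0 h, 7.57 at 3 h and 8.13 at 6 h.

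A second list written after the values were seen held 29 neutrophil granule proteins, of which 6 rose and 1, Ceacam1, fell, with a median difference of 0.07. Besides Lcn2 these were the granule glycoprotein Olfm4 (9.35 ± 0.46 at 3 h and 10.27 ± 0.57 at 6 h), the protease inhibitors Serpinb1a (11.69 ± 0.24 at 3 h and 12.47 ± 0.05 at 6 h) and Slpi (10.87 ± 0.20 at 3 h and 11.61 ± 0.19 at 6 h), the adhesion molecule Ceacam10 (11.44 ± 0.18 at 3 h and 12.03 ± 0.21 at 6 h) and the peptidoglycan-binding Pglyrp1 (11.18 ± 0.19 at 3 h and 11.75 ± 0.22 at 6 h). All 7 kept their call with the variance of the 3 h and 6 h arrays alone. Of 28 replication-dependent histone genes, 4 fell and none rose, among them Hist1h2ao (-0.46) and Hist1h4a (-0.45). Copies within a histone family are close in sequence, so their probe sets may share transcripts. The largest change among the 148 called probe sets without a symbol was a rise of 1.49, from 9.40 ± 0.32 to 10.89 ± 0.13, at chr3:84642926-84689096 (plus strand, rn5).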
